A study of Mus musculus with 2 samples.

Results

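Tetraspanins are small membrane proteins that cross the membrane several times and carry a large extracellular loop held together by disulfide bonds. They bind integrins, immunoglobulin-family proteins and proteases and gather them into membrane patches called tetraspanin webs, and some of them mark late endosomes and the vesicles that cells release. In macrophages they are known for roles in adhesion, cell fusion, pattern recognition and vesicle traffic. The 10 genes described here are Cd9, Cd37, Cd53, Cd63, Cd81, Cd82, Cd151, Tspan4, Tspan14 and Tspan31, taken by name from 10547 genes that could be named in the deposited splice junction lists, of which 8375 had at least 20 reads over both libraries. For each gene the reads that cross its annotated introns were summed, and all 10 had more than 100 such reads.

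Male C57BL/6JJcl mice were injected with thioglycolate, an irritant broth, and 3 days later the cells drawn into the peritoneum were washed out and those that adhered, called macrophages in the labels, were kept for RNA sequencing. One library came from cells given interleukin 10 (IL-10), a cytokine that restrains inflammatory gene expression, at 100 ng/ml for 4 h. The other library came from cells titled untreated, although its protocol text repeats the treatment. Each group has 1 library and so no replicates: a ratio of IL-10 to untreated describes this pair of libraries, and every 95% interval given covers counting error only.

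The IL-10 library held 3998954 spliced reads and the untreated library 4035991, of which 3845813 and 3874280 lay on introns that belong to a single named gene. The tetraspanins took 14897 of these reads (0.387%) and 16063 (0.415%). Of 8 macrophage markers, 7 were measured, with 15545 and 19786 reads per 1000000 named reads in sum, led by the lysozyme gene Lyz2 (31849 and 45047 reads, ratio 0.712). Of those 7 markers 4 had an interval below 1 and 2 one above 1. Among all 8375 genes with at least 20 reads, 1096 had one below 1 and 1075 one above. Markers of other cells were far lower in sum: B cell markers 127 and 141 per 1000000, platelet 112 and 136, neutrophil 141 and 126, fibroblast and mesothelial 194 and 189, eosinophil and mast cell 26.8 and 17.6, and T cell 1.56 and 0.258. A single gene carried 2 of these sums. Cd22 had 450 of the 489 B cell reads with IL-10 and 497 of the 545 without. Pf4 had 430 of the 432 platelet reads with IL-10 and 524 of the 525 without. No junction was matched for the B cell gene Cd79a, the T cell genes Cd3d, Cd3g and Cd8a, the neutrophil genes S100a8, S100a9 and Ly6g, the platelet genes Gp9, Gp1bb and Ppbp, or the eosinophil genes Epx and Prg2. The part of other cell types in the tetraspanin values was not tested, and in such bulk samples fewer cells of a type and less RNA per cell cannot be told apart.

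Levels of the 10 genes are given as reads per annotated intron of the main transcript, per 1000000 named reads, a scale that allows for the number of introns. Cd9 stood highest, at 275 with IL-10 and 286 without, which placed it 47th and 48th among the 10547 genes. Cd53 followed with 166 and 184, ranks 78 and 74. Cd37 (26.2 and 25.8) and Tspan14 (26.1 and 25.9) were next, and their order changed between the libraries. Tspan4 (13.7 and 14.01), Cd82 (11.9 and 14.1), Tspan31 (10.4 and 11.6) and Cd151 (10.1 and 14.05) formed a group within 1.5-fold of each other in each library, and their order changed too. Cd63 (2.08 and 3.36) and Cd81 (1.75 and 3.06) were lowest, at ranks 5050 and 5500 with IL-10. The order of the lowest members is uncertain because Cd63 has a near-identical processed copy in the genome, described with its values below.

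None of the 10 tetraspanins differed 2-fold between the libraries. A gene was called when its ratio reached 2 in either direction (2 or more, or 0.5 or less) and its interval did not include 1. Over all genes with at least 20 reads, 1.76% were called higher in the IL-10 library and 1.48% lower, against 0 and 0 of the tetraspanins. The ratios of 8 of the 10 lay below 1, where 50.4% of all genes with 100 reads or more did. For 6 members (Cd9, Cd53, Cd63, Cd81, Cd82 and Cd151) the interval lay below 1 and for 0 it lay above 1. Of genes with 100 reads or more, 15.6% had an interval below 1 and 15.6% one above 1, and this share grows with depth, to 35.4% below 1 at 2000 to 20000 reads, the range of Cd9 and Cd53. The median log2 ratio was -0.15 over the members and -0.00 over all genes with at least 20 reads. The count of 6 changed with the introns used. With the most-read intron of each gene left out, 1 member, Cd151, had an interval below 1, and 1, Tspan14, had one above 1. Leaving that intron out also leaves fewer reads, which widens intervals. The ratios of Cd9 (0.969), Cd53 (0.975), Cd81 (0.665) and Cd82 (0.879) then stayed below 1, and that of Cd63 was 1.08. With a 99% interval the count below 1 was 3. The shares of all genes under these changed settings are not given.

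**Figure D1:**
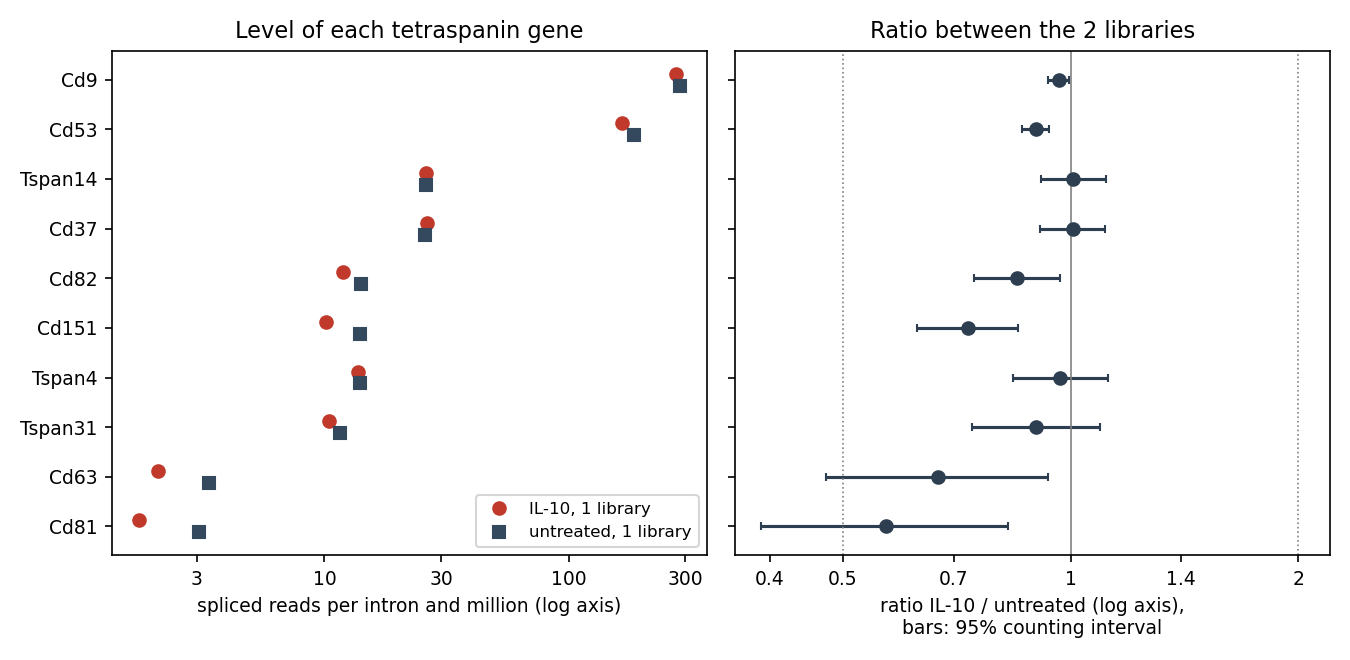
Level of each gene in spliced reads per intron, per 1000000 named reads (left, log axis, 1 point per library) and ratio of the IL-10 to the untreated library (right, log axis, bars are 95% counting intervals, dotted lines mark 2-fold). Cd9 and Cd53 stand apart at 166 to 286, and every ratio lies between 0.570 and 1.01.

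Every intron of the main transcript lay below 1 in Cd151. This gene, whose protein is a close partner of laminin-binding integrins, had 292 reads with IL-10 and 402 without, a ratio of 0.732 (95% interval 0.627 to 0.853). Its 7 intron ratios ran from 0.569 (26 against 46 reads at intron 3) to 0.914 (39 against 43 at intron 5), although only introns 2 and 3 had intervals below 1 on their own. Of 395 genes with 7 measured introns, 16 (4.05%) had all 7 below 1. Among 1832 genes with 500 to 2000 reads the log2 ratio of Cd151, -0.45, was at percentile 2.07. In that range Cd82 was at 13.7, Tspan4 at 38.5, and Cd37 and Tspan14 at 47.8. Among genes with 2000 to 20000 reads Cd53 was at 22.2 and Cd9 at 40.9. The ratio of Cd151 was 0.764 (0.643 to 0.908) without its most-read intron and 0.620 (0.436 to 0.874) on that intron alone. The first exons of Cd151 differ between transcripts: at the acceptor of exon 2, 16 of 49 reads (32.7%, exact interval 19.9% to 47.5%) came from a second annotated donor with IL-10 and 14 of 65 (21.5%, 12.3% to 33.5%) without, so these intervals overlapped.

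Cd9, a regulator of cell adhesion and fusion that binds the immunoglobulin-family proteins encoded by Igsf8 and Ptgfrn, had 7414 and 7744 reads (ratio 0.964, 0.934 to 0.996). That sum hid introns that went opposite ways. Intron 6, chr6:125411328-125412131, had 783 reads with IL-10 against 1388 (0.568, 0.520 to 0.621). Its neighbours had 193 and 237 reads at intron 5 (0.820, 0.675 to 0.996) and 572 and 489 at intron 7 (1.18, 1.04 to 1.33). Further toward the start of the gene, intron 1 had 1945 and 1705 reads (1.15, 1.08 to 1.23), intron 2 had 2644 and 2783 (0.957), intron 3 had 623 and 510 (1.23, 1.09 to 1.39) and intron 4 had 654 and 631 (1.04). Reads per intron thus ran from 430 to 5427 over both libraries within a single transcript with 7 introns, and 3 introns had intervals above 1 and 2 below 1. A processed pseudogene, Cd9-ps, holds a copy of 5 of the 7 exon junctions with 3 to 6 mismatches in 80 bases, including that of intron 6 with 4 mismatches, and its part in these counts was not tested.

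Cd53, which is found across white blood cells, had 4462 and 5002 reads (0.899, 0.863 to 0.936). Here too a late intron carried most of the difference. Intron 6, chr3:106565095-106566129, held 1524 and 1967 reads (0.781, 0.730 to 0.835), 36.9% of all reads of the gene. Without it the gene stood at 0.975 (0.927 to 1.03). Intron 5, with 240 and 181 reads, lay on the other side (1.34, 1.10 to 1.63). Intron 1, with 785 and 910 (0.869, 0.789 to 0.957), and intron 4, with 533 and 652 (0.824, 0.733 to 0.925), lay below 1. No copy of a Cd53 junction was found in another annotated transcript.

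Such disagreement between introns of the same gene was common at this depth. Of 60 member introns with at least 20 reads, 17 (28.3%) had an interval that excluded the ratio of the gene's sum, against 7.72% of 41904 introns of all genes. Of the 16 member introns with 400 reads or more, 10 did so, 4 of them in Cd9 and 5 in Cd53, where 31.9% of all introns of that depth did. Counting intervals are therefore narrower than the spread between introns of a gene, and a gene ratio near 1 with an interval just clear of it, as in Cd9, is within that spread.

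**Figure D2:**
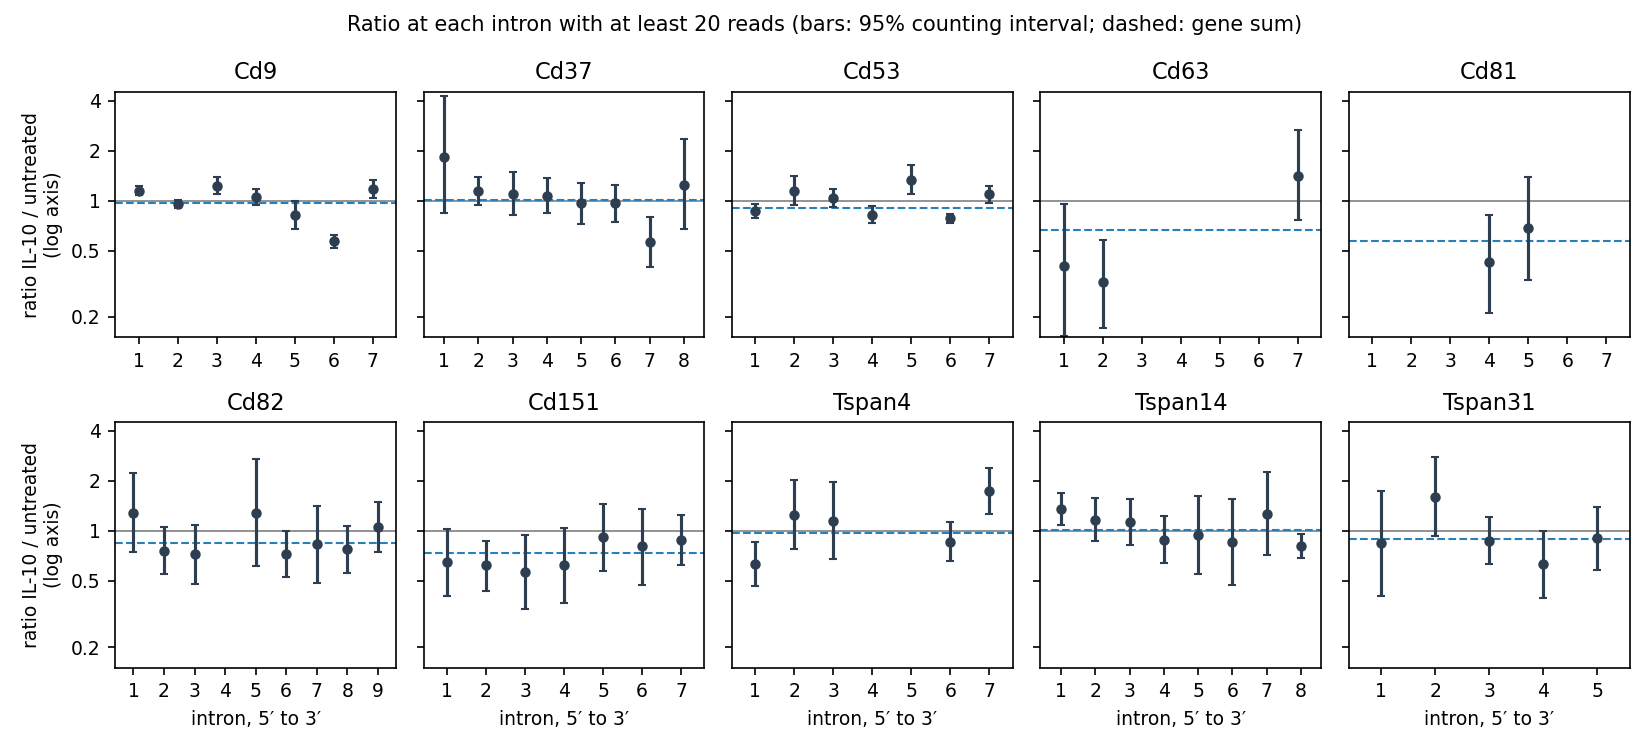
Ratio of the IL-10 to the untreated library at each intron with at least 20 reads (log axis), numbered from the start of the gene, with 95% counting intervals; the dashed line is the ratio of the gene's summed reads. The 7 introns of Cd151 all lie below 1, while intron 6 of Cd9 (0.568) and intron 7 of Cd37 (0.565) stand apart from the other introns of their gene.

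Cd37, a leukocyte tetraspanin known to bind the beta-glucan receptor encoded by Clec7a, had 817 and 818 reads (1.01, 0.912 to 1.11). Intron 7 had 55 reads with IL-10 against 98 (0.565, 0.399 to 0.795), and it was the only one of the 8 measured introns of Cd37 with an interval clear of 1. The other introns ran from 0.960 at introns 5 and 6 to 1.83 at intron 1, where 20 and 11 reads were counted. An unannotated junction on the opposite strand, chr7:52490135-52490737, lies across most of intron 7 and had 0 and 20 reads, with at most 9 bases aligned on its shorter side. Whether it shares reads with intron 7 was not tested. The last exon of Cd37 is joined at alternative acceptors: 7 of 33 reads (21.2%, 8.98% to 38.9%) used the nearer one with IL-10 and 12 of 33 (36.4%, 20.4% to 54.9%) without.

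The intron with the lowest ratio in each of Cd9, Cd53 and Cd37 leads into the next-to-last exon, which is 84 bases long in each of these genes. An internal exon of exactly 84 bases occurs in 6 of the 10 members (Cd9, Cd37, Cd53, Cd63, Cd82 and Tspan4) and in 7.94% of 10455 genes whose main transcript has an internal exon. An internal exon of 75 bases occurs in 8 of the 10, against 6.92% of those genes. The 84-base exons of 5 members are shown because the intron ratios on their sides are compared next. Letters come from GENCODE transcripts, 5′ to 3′ on the strand of the gene, with the exon in capitals and 10 coding bases of each neighbouring exon in lower case, and positions are those of the deposited mm9 lists.
Cd9, minus strand, chr6:125411244-125411327: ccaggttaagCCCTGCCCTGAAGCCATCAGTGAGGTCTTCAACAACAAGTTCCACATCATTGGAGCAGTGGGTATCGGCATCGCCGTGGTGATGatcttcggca
Cd37, minus strand, chr7:52490054-52490137: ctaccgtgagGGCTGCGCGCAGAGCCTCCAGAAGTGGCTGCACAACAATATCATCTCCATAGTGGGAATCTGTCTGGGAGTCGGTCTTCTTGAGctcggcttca
Cd53, minus strand, chr3:106565011-106565094: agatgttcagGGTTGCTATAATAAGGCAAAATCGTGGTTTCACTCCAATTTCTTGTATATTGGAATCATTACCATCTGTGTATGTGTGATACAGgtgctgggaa
Cd82, minus strand, chr2:93260397-93260480: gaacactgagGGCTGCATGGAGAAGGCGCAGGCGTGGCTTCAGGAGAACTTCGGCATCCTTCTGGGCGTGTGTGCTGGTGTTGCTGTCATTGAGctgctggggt
Tspan4, plus strand, chr7:148677879-148677962: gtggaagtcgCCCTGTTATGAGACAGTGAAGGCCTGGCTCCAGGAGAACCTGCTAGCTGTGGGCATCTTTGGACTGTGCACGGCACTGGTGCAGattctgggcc

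These 84-base exons share their length and part of their letters. Aligned base by base, the 10 pairs were 40.5% to 58.3% identical with a median of 46.4%, and the closest pair was Cd37 and Cd82. G and C made up 35.7% of the exon in Cd53 and 59.5% in Cd82.

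In each of these 5 genes the intron into the 84-base exon had a lower ratio than the intron out of it. In Cd9 the ratios were 0.568 and 1.18, in Cd53 0.781 and 1.09, and in Tspan4 0.861 (106 and 124 reads) and 1.73 (110 and 64), and in these 3 genes the intervals did not overlap. In Cd37 they were 0.565 and 1.25 (26 and 21 reads at the exit), and in Cd82 0.775 (70 and 91 reads) and 1.05 (71 and 68), with intervals that overlapped. Over all genes the entry ratio was the lower one at 49.7% of 28517 internal exons and at 47.7% of the 239 exons of 84 bases. Of the 26 exons that were both 84 bases long and next to last, the members included, 13 had the lower ratio at entry. At the 75-base exons the entry ratio was the lower one in 1 (Cd151) of 6 measured exons of 5 members, and in Cd9 (1.23 and 1.04), Cd53 (1.03 and 0.824), Cd82 and both such exons of Cd37 it was the higher one, against a lower entry at 48% of 204 exons of 75 bases over all genes. Taking the next-to-last exon of any length, 7 of 8 members with both introns measured had the lower ratio at entry, the exception being Tspan14 (1.26 and 0.814), against 51.4% of 3409 such exons over all genes. Cd63 and Cd81 had too few reads there. This comparison was chosen after the intron values were seen, and the cause was not tested.

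**Figure D3:**
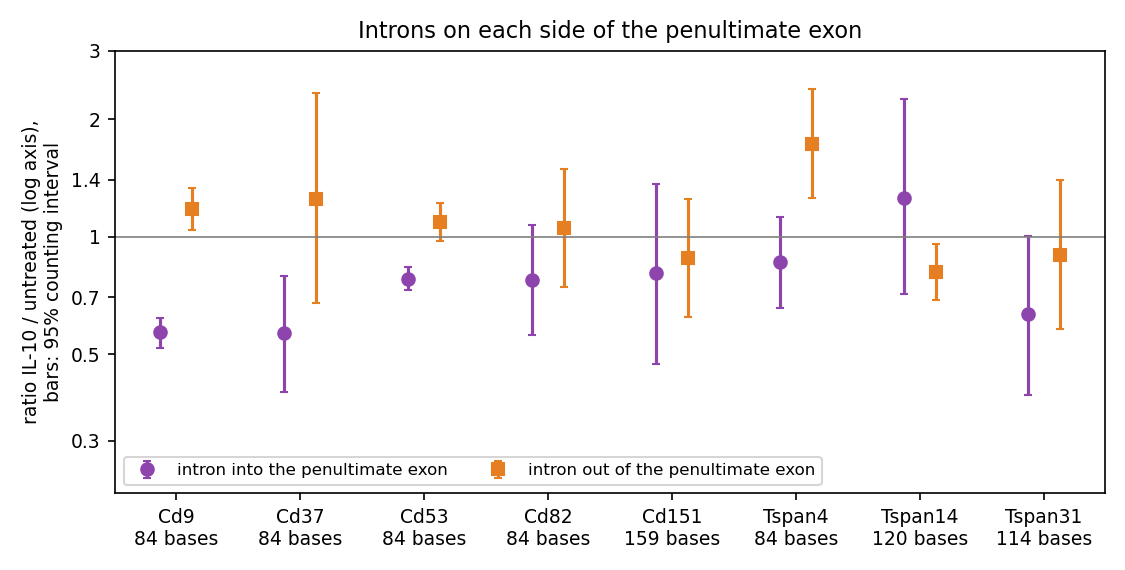
Ratio of the IL-10 to the untreated library at the intron into (circles) and out of (squares) the next-to-last exon of 8 members (log axis, bars are 95% counting intervals), with the exon's length under each name. Entry lies below exit in 7 of 8, and the intervals are apart in Cd9, Cd53 and Tspan4.

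Cd82, known as a suppressor of metastasis that restrains cell movement, had 426 and 505 reads (0.850, 0.745 to 0.969). Of 8 measured introns 5 lay below 1 and 3 above, and none had an interval clear of 1 alone. Without its most-read intron Cd82 stood at 0.879 (0.760 to 1.02). Its first exon is joined either to exon 2 or directly to exon 3, and the direct join took 13 of 46 reads (28.3%, 16.0% to 43.5%) with IL-10 and 14 of 40 (35.0%, 20.6% to 51.7%) without.

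Cd81, a common marker of released vesicles, had 47 and 83 reads (0.570, 0.390 to 0.826), the lowest ratio of the 10. Among 3503 genes with 100 to 500 reads its log2 ratio of -0.80 was at percentile 1.08. With 130 reads it lay near the shallow end of that range, where counting error is wider. In the same range Cd63 was at percentile 4.17 and Tspan31 at 32.2. Each of the 7 introns of Cd81 had fewer reads in the IL-10 library, but 5 of the 7 had fewer than 20 reads in all. Intron 4, with 14 and 33 reads (0.427, 0.211 to 0.821), was the only one with an interval below 1. Without that intron Cd81 stood at 0.665 (0.415 to 1.05).

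Cd63, which cycles through late endosomes and lysosomes and marks exosomes, had 61 and 92 reads (0.668, 0.475 to 0.933), and this value is uncertain. The processed pseudogene Cd63-ps carries a copy of all 7 exon junctions of Cd63, with 0 to 3 mismatches in 80 bases. Introns 4, 5 and 6, where the copy had 0 mismatches, had 0, 2 and 1 reads with IL-10 and 0, 0 and 0 without. Intron 3, with 1 mismatch, had 1 and 1 reads. Intron 1, with 3 mismatches, had 8 and 20 reads (0.403, 0.154 to 0.955). Intron 2, with 1 mismatch, had 16 and 50 reads (0.322, 0.171 to 0.576) and intron 7, with 2, had 28 and 20 (1.41, 0.767 to 2.64), so the introns of Cd63 lay on both sides of 1. Without intron 2 the gene stood at 1.08 (0.693 to 1.68). How many reads of Cd63 were placed on the copy was not tested.

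Tspan4, known for its part in migrasomes, the vesicles that form on the trailing fibres of moving cells, lies near Cd151 on chromosome 7. It had 374 and 389 reads (0.969, 0.838 to 1.12). Its first intron had 75 and 119 reads (0.635, 0.469 to 0.855) and its last had 110 and 64 (1.73, 1.26 to 2.39), so its ends lay on opposite sides of 1. Intron 4 had 0 reads with IL-10 and 10 without, and intron 5 had 2 and 0. The less-used of its first exons took 6 of 81 reads (7.41%) with IL-10 and 9 of 128 (7.03%) without at the shared acceptor.

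Tspan14 belongs to the TspanC8 group, which escorts the membrane protease Adam10 to the cell surface. It had 804 reads in each library (1.01, 0.912 to 1.11). Its first intron, 32490 bases long, had 195 and 145 reads (1.35, 1.09 to 1.69), and its last, which held 37.0% of the reads of the gene, had 266 and 329 (0.814, 0.690 to 0.960). The introns between had intervals that included 1. Into the acceptor of exon 2 ran 8 unannotated junctions, with 15 reads in sum with IL-10 and 3 without (5.04, 1.42 to 27.1). These reads are part of the 21 and 8 on all unannotated junctions of the gene. No such sum is given for other sites. The annotated donor took 195 of 210 reads there (92.9%, 88.5% to 95.9%) and 145 of 148 (98.0%, 94.2% to 99.6%).

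Tspan31, a widely expressed member beside the cell cycle kinase gene Cdk4 on chromosome 10, had 200 and 224 reads (0.899, 0.740 to 1.09). Of its 5 introns 4 lay below 1, and none had an interval clear of 1. Intron 2 had 38 and 24 reads (1.60, 0.932 to 2.78) and intron 4 had 32 and 51 (0.632, 0.393 to 1.003).

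No junction of the tetraspanins was named as differing in splice site choice by the rule used. The rule was applied at 41 donors and acceptors with at least 20 reads in each library and more than 1 junction. Of 102 junction entries there, 0 differed by 20 percentage points with intervals apart. A junction can be entered at both its donor and its acceptor. The share over all genes by this rule is not given, so the 0 has no background here. The largest difference, 19.96 points, was at an acceptor of Cd63 with 21 and 52 reads, where an annotated donor further downstream took 4 and 0 reads, and at the 26 sites with 50 reads or more it was 5.12 points, at exon 2 of Tspan14.

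Of 21 other tetraspanin genes, 6 were measured and 0 were called. Tspan17, another TspanC8 member, had 43 and 81 reads (0.535, 0.361 to 0.783) and was the one with an interval clear of 1. Tspan13 was the most abundant of them, with 447 and 423 reads (1.06, 0.930 to 1.22). Tspan3 had a ratio of 1.20, Tspan7 of 0.711 and Upk1b of 0.766, each with an interval that included 1. No junction was matched for 12 of the 21. On its most-read intron alone the interval of Tspan17 included 1.

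The list of Adam10, the related protease gene Adam17, the TspanC8 escorts and Adam10 substrates had 13 measured members of 18. Of these 0 were called, and 3 intervals lay above 1 and 4 below. Of all 8375 genes with at least 20 reads, 1075 had an interval above 1 and 1096 one below, and such intervals grow more common with depth. The receptor genes Notch1 (169 and 103 reads, 1.65, 1.29 to 2.13) and Notch2 (393 and 266, 1.49, 1.27 to 1.75) and the membrane-bound chemokine gene Cxcl16 (826 and 643, 1.29, 1.17 to 1.44) lay above 1. The most abundant, App (4586 and 4482 reads) and Aplp2 (2601 and 2829), stood at 1.03 and 0.926. The list's median log2 ratio was 0.04. Adam10 and Adam17 were named after their values were seen. Adam10 had 942 and 884 reads (1.07, 0.978 to 1.18), and Adam17, which gave 1 of the 4 intervals below 1, had 1590 and 1988 (0.806, 0.754 to 0.861).

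Integrins and other partners of tetraspanin webs had 23 measured members of 31, with 0 called and a median log2 ratio of 0.06. There were 8 intervals above 1 and 5 below, against 1075 above and 1096 below among all 8375 genes with at least 20 reads. Many partners are deep genes, where such intervals are more common. Itga6, the laminin receptor chain that binds Cd151, had 815 and 533 reads (1.54, 1.38 to 1.72), and Itga3, another such chain, 20 and 10 (2.01, 0.9001 to 4.82). Clec7a, the partner of Cd37, had 1101 and 1975 reads (0.562, 0.521 to 0.605), and Bsg, which encodes the glycoprotein basigin, 1026 and 1531 (0.675, 0.623 to 0.731). The scavenger receptor gene Cd36 and the leukocyte integrin chain gene Itgb2, the most abundant of the list, stood at 1.004 and 0.961. On the most-read intron alone, 1 gene was called higher and 3 intervals lay above 1, and the share of all genes on that setting is not given.

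Genes of vesicle formation and late endosomes had 19 measured members of 23, with 0 called and a median log2 ratio of 0.07. There were 6 intervals above 1 and 4 below, against 1075 above and 1096 below among all 8375 genes with at least 20 reads. The membrane scaffold genes Flot1 (479 and 301 reads, 1.60, 1.39 to 1.86) and Flot2 (376 and 266, 1.42, 1.21 to 1.67) lay above 1, as did Sdcbp, which encodes the CD63-binding adaptor syntenin (5221 and 5016, 1.05, 1.01 to 1.09). Sdc4 had 39 and 25 reads (1.57, 0.927 to 2.71), and the lysosomal membrane protein gene Lamp1, with 18348 and 21580 reads, stood at 0.857 (0.840 to 0.874).

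**Figure D4:**
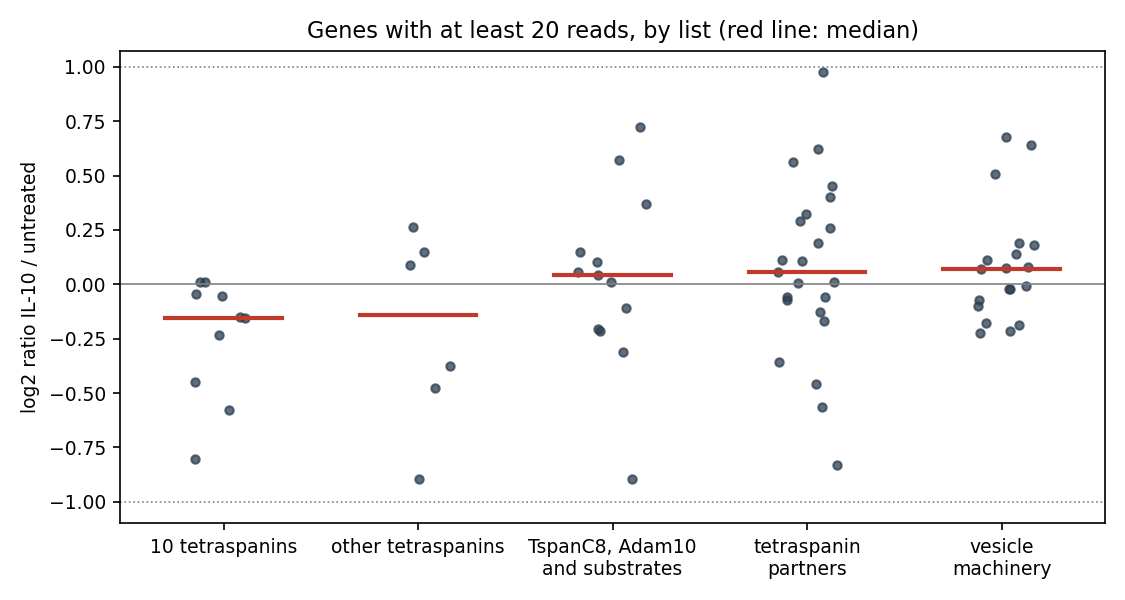
Log2 ratio of the IL-10 to the untreated library for each gene with at least 20 reads, by list (each point is a gene, red lines are medians, dotted lines mark 2-fold). No point lies beyond a dotted line, and the median is -0.15 for the 10 tetraspanins and between -0.14 and 0.07 for the other lists.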

How the data were processed

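Per the file headers, the deposited values are TopHat counts of reads across each splice junction, without scaling; the build mm9 and the tools TopHat and Cufflinks stand in the submitters' processing notes, and tool versions are not given in the sources used here. Groups come from the sample titles, since the protocol text of the untreated sample repeats the treated one; nothing in the labels says how many mice were used.

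Introns of GENCODE M21, on a later build, were matched to junctions by chromosome, strand and exact length, where at least 2 introns of a gene shared an offset of up to 20 Mb. Of 131057 junctions, 105565 matched a single gene, among them 83 of the tetraspanins. No member intron was shared with another gene. A gene's main transcript is the coding one with the most reads. Ratios are of reads over each library's named reads, with exact conditional binomial (Clopper-Pearson) intervals. Log2 ratios used a pseudocount of 0.5 reads. Copies were sought with blastn 2.17.0 using 40 bases on each side of an exon junction, against GENCODE transcripts. The ratio, interval and call were tried on simulated gene counts that varied by counting error alone. Such counts lack the wider spread between introns of a gene described above, so they cannot show how the intervals fare with it. Members, lists and rules were chosen with earlier results of these data known. Named genes are the members and, from each list, up to 4 with the largest absolute log2 ratio and the 2 with most reads. Python 3.11.15, scipy 1.17.1, pandas 2.3.3, R 4.3.3, edgeR 4.0.16 and DESeq2 1.42.0 were used, the last 2 for scaling factors only.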

Additional observations from a re-analysis of the deposited data

Results flagged for a closer look

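Reads on junctions outside the annotation were more numerous with IL-10 than without for Tspan14. Its 16 unannotated junctions on the strand of the gene held 21 and 8 reads (ratio 2.64, 95% counting interval 1.13 to 6.90), which is 2.55% and 0.985% of the reads of the gene. No single junction among them had more than 5 reads in a library. For the other members this ratio had an interval that included 1 or could not be given. Tspan14 is thus 1 of 10 members, singled out by its interval. The share of all genes with such an interval is not given, so this result has no background here.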

How the results depend on the processing

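Replacing the total of named reads by the TMM factor of edgeR, the size factor of DESeq2 or all junction reads, including shared introns, requiring 10 bases on each side, and counting all junctions in the span left 0 members called and 6 with an interval below 1. Of these, the shared introns and the 10 bases changed no member's reads, and a change of total moves all genes alike. On the most-read intron alone 2 members (Cd9 and Cd82) lost an interval clear of 1. There Tspan14 changed direction and gained an interval below 1 (0.690 to 0.960). Without that intron Cd9, Cd53, Cd63, Cd81 and Cd82 lost an interval below 1, Tspan14 gained one above 1, and 3 members changed direction. The changes of direction were Cd37 at 0.999 with the DESeq2 size factor and 0.960 without its most-read intron, Tspan14 at 0.815 on its most-read intron alone, and Cd63 at 1.08 and Tspan4 at 1.02 without that intron. Without the most-read intron of each gene 1 member had an interval above 1 and 1 below. On that intron alone 2 members (Cd63 and Cd81) were called lower. For Cd63 this is intron 2, whose exon junction has a copy with 1 mismatch in Cd63-ps. With a fold of 1.5 as the rule 1 member (Cd81) was called lower, and with a 99% interval 3 members lay below 1. For the other lists on the most-read intron alone, 0 other tetraspanins had an interval below 1; of the list with Adam10 1 gene was called higher and 2 intervals lay below 1; of the partners 1 was called higher and 3 intervals lay above 1; of the vesicle genes 1 was called higher. Shares of all genes under these changed rules are not given, so the counts of calls and intervals have no background here. The cause of these differences was not tested. With 50 reads at both introns, 6 of 7 members kept the lower ratio at entry to the next-to-last exon. Depth limits Cd63 and Cd81 most, where most introns had under 20 reads.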
